A study of Rattus norvegicus with 8 samples.

Results

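Iron handling was followed in the mononuclear cells of peripheral blood (PBMCs, that is lymphocytes with monocytes) through 6 genes: lipocalin 2 (Lcn2), natural resistance-associated macrophage protein (Slc11a1), ferroportin (Slc40a1), the transferrin receptor (Tfrc), the ferritin heavy chain (Fth1) and ceruloplasmin (Cp). Their members on the array were all probe sets that the annotation ties to exactly 1 of these symbols, whatever their values. This gave 9 of the 31042 probe sets and 4 of the 6 genes, with 1 probe set for Lcn2, 3 for Slc40a1, 2 for Tfrc and 3 for Cp. Slc11a1 had no probe set under its symbol, and the only probe set of Fth1 is also annotated to the pseudogene Fth1-ps5, so neither gene was analysed here.

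The reporter PBMCs came from 2 healthy male Brown Norway rats of about 180 days, BN1 and BN2, and 500000 cells of a donor were cultured for 6 h with 20% plasma. Density gradient centrifugation had separated the cells from blood, a step known to leave most granulocytes behind. Every plasma was tested once on the cells of each donor, which gave 8 Affymetrix rat arrays in 4 groups of 2. The control plasma was a pool from 8 male Sprague-Dawley rats that breathed 21% oxygen as neonates. The 5% IH plasma was pooled from 5 such rats, and the 10% IH plasma from 3, that had breathed 5% or 10% oxygen intermittently (intermittent hypoxia, IH) for 1 h a day on postnatal days 2 to 6. All Sprague-Dawley rats were weaned on day 22 and gave blood as adults, at an age labelled PD114, months after the exposure. The Brown Norway rats were thus older as well as of another strain. The Sprague-Dawley rats were also fasted overnight before bleeding and kept at another site, and no fast is stated for the Brown Norway rats. In comparisons with autologous plasma, age, strain, fasting and housing cannot be told apart. The autologous group received Brown Norway plasma in place of Sprague-Dawley plasma and shows the level without foreign plasma. Labels of the autologous arrays disagree on whose plasma was used with which donor's cells, so that "autologous" is the label and was not checked. Because each plasma was pooled once, the spread within a group is that between 2 donors of cells, each with 1 culture and array. It is not that between treated rats or pools, and no p-value below speaks of rats or pools.

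Animals keep iron within narrow limits because free iron is toxic while cells and microbes both need it. Transferrin carries iron in plasma and enters cells through the transferrin receptor, surplus iron is held in ferritin, and ferroportin releases it with the help of the ferroxidase ceruloplasmin. Phagocytes also use iron as a means of defence: lipocalin 2 binds the siderophores with which bacteria collect iron, and the transporter of Slc11a1 moves metal out of the phagosome. Lipocalin 2 and ceruloplasmin are known as acute phase proteins, and Lcn2 is known as a target of NF-kB and C/EBP factors in inflamed cells.

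Values are log2 expression, normalised by the authors across all arrays, and array medians lay between 5.53 and 5.56. A probe set is said below to be higher or lower where it met the criterion of the study, a Rank Product p under 0.05 and group means that differed by more than 1.2-fold, which is 0.263 on the log2 scale. Differences are given as log2 differences of group means with the standard error (SE) of limma. With them stands limma's p, which rests on the spread within groups, adjusted by Benjamini-Hochberg over all 31042 probe sets. The Rank Product p instead rates how consistently a probe set ranked high or low among all probe sets in the ratios between arrays. The mean over the 8 arrays put 4 of the 9 probe sets, among them the only probe set of Lcn2, under the 40th percentile (4.87) of all probe sets.

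Promoters of 4 of the 6 genes were in the RefSeq table of the rat genome build GRCr8, as the 250 bases before the gene's start. Those of Lcn2 and Cp are shown whole because these genes were most often higher than with autologous plasma, and both hold a match to the C/EBP motif TTGCNNAA. In the Lcn2 promoter (chr3:36081781-36082030, minus strand) capitals mark a match to the NF-kB consensus on the opposite strand, 242 to 233 bases before the start, and the C/EBP match, 191 to 184 bases before it. In the Cp promoter (chr2:104368420-104368669, plus strand) capitals mark the C/EBP match, on the opposite strand 72 to 65 bases before the start. For Tfrc the 60 bases next to the start (chr11:81690319-81690378, minus strand) are shown, with the core of a hypoxia response element, ACGTG, in capitals 31 to 27 bases before the start.
Lcn2: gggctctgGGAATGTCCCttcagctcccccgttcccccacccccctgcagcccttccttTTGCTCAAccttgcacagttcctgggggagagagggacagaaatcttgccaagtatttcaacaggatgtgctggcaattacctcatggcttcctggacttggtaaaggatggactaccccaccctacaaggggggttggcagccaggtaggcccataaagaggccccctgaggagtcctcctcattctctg
Cp: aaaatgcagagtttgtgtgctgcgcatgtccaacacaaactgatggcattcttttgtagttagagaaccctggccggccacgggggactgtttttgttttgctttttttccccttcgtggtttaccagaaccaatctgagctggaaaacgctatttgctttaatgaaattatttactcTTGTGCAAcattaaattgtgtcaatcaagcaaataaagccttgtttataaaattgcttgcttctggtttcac
Tfrc: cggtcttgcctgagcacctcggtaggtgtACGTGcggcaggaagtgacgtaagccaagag

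Over the 33469 rat promoters of that length, 3.54% held the NF-kB consensus, 9.22% the C/EBP motif and 16.6% ACGTG, each searched on both strands. The antioxidant response element TGACNNNGC (10.1% of promoters) and the PU.1 motif GAGGAA (23.3%) were searched too and had no match in the 4 windows, and the Slc40a1 window held none of the 5 motifs. These matches are letters only, and binding was not measured here.

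Lcn2 was the member that moved most. With autologous plasma, its probe set 1387011_at read 3.54 on the BN1 array and 3.61 on the BN2 array. Control plasma gave 4.71 and 5.05, 5% IH plasma 5.50 and 5.69, and 10% IH plasma 5.32 and 5.32. No group overlapped another, which held for 1 of the 9 member probe sets and 1.39% of all probe sets, and in the cells of both donors the order was autologous, control, 10% IH and 5% IH.

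Against control plasma, Lcn2 was higher with 5% IH plasma by 0.72 (SE 0.125), which is 1.64-fold, with 0.80 in the cells of BN1 and 0.64 in those of BN2. With 10% IH plasma it was higher by 0.44 (SE 0.125), or 1.36-fold, with 0.61 in BN1 and 0.27 in BN2. Both differences met the criterion, while limma's adjusted p was 1 for 5% IH and 0.92 for 10% IH. The difference of 5% IH plasma from control lay between 0.54 and 0.89 when any array was left out. For 10% IH plasma it was 0.27 without the BN1 control array, just over the threshold.

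The 2 hypoxia plasmas also differed in Lcn2, which was higher with 5% IH than with 10% IH by 0.28 (SE 0.125, 1.21-fold), with 0.18 in BN1 and 0.37 in BN2. This met the criterion narrowly, with a limma adjusted p of 0.981. Without the BN2 array of 5% IH the difference was 0.18 and under the threshold, and without the BN2 array of 10% IH it stayed 0.28 but no longer met the criterion.

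The largest steps of Lcn2 were from autologous plasma. Control plasma gave 1.30 more (SE 0.125, 2.47-fold, limma adjusted p = 0.000772), 5% IH plasma 2.02 more (4.05-fold, adjusted p = 3.95e-05) and 10% IH plasma 1.74 more (3.34-fold, adjusted p = 0.000141). These were the only member differences that passed limma's adjustment, 1 of the 9 probe sets in each of these comparisons, where 1.78%, 1.96% and 1.25% of all probe sets passed. The step from autologous to control plasma, which involves no hypoxia, was larger than that from control to either IH plasma in both donors.

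**Figure D1:**
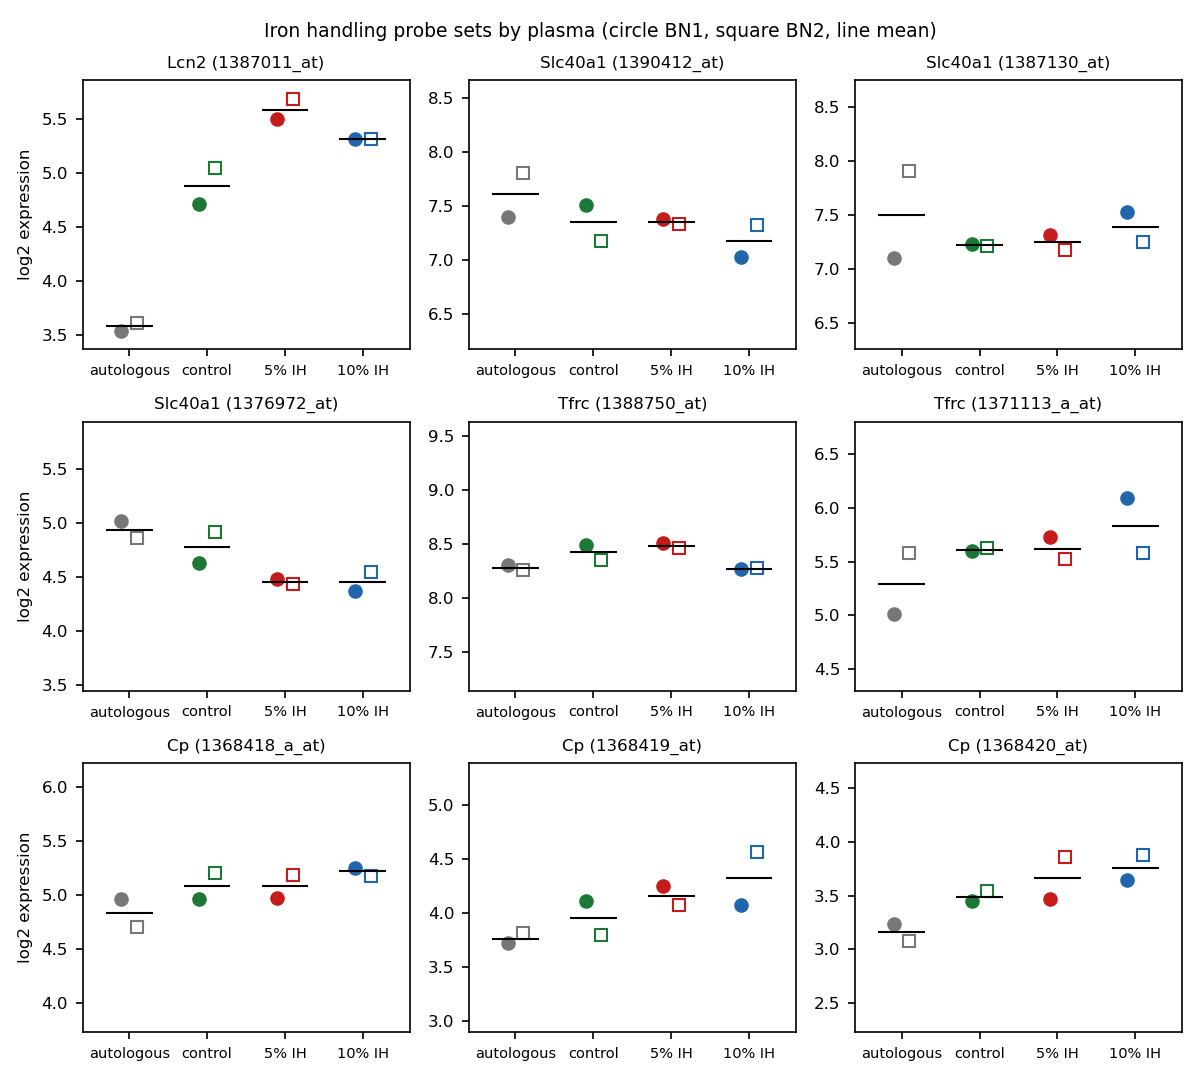
Log2 expression of the 9 probe sets on each of the 8 arrays, by plasma, with every panel spanning the same log2 range. Circles are BN1 cells, squares BN2 cells and lines the mean of the pair. Lcn2 runs from 3.54 with autologous plasma to 5.69 with 5% IH plasma, and the other panels show overlap between some plasmas.

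Markers of blood cells were read beside Lcn2, since monocytes and neutrophils are known sources of its transcript, although the gradient leaves few neutrophils. The linear levels of 9 monocyte markers summed to 496 and 798 with autologous plasma, 3369 and 3990 with control, 3957 and 4672 with 5% IH and 3902 and 4061 with 10% IH plasma, for BN1 and BN2. All 9 were higher with control than with autologous plasma, where 6.16% of all genes were. Their median was 2.08, led by the lipopolysaccharide co-receptor Cd14 (5.28), the Fc receptor Fcgr1a (3.24) and the growth factor receptor Csf1r (2.89). Against control, 4 of the 9 were higher with 5% IH plasma, including Adgre1 (0.54), Cd14 (0.40) and Fcgr1a (0.28), and Ccr2 was lower (-0.29). Of all genes 1.46% were higher and 1.03% lower, and 0 probe sets passed limma's adjusted p of 0.05 in this comparison. With 10% IH plasma 0 of the 9 met the criterion against control, where 2.04% of all genes were higher and 2.26% lower. Fewer cells of a type and less RNA per cell cannot be told apart in these cultures.

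Neutrophil and granulocyte precursor markers were sparse, as only 9 of 16 had a probe set of their own, 5 of these were under the 40th percentile, and the defining genes Mpo, Elane, Ngp and Ltf were not among them. Their sums were 220 and 287 with autologous plasma, 361 and 424 with control, 394 and 431 with 5% IH and 358 and 453 with 10% IH. Of the 9, 4 were higher with control than with autologous plasma, where 6.16% of all genes were. They were led by Chi3l1 (1.90), Csf3r (0.87) and S100a8 (0.34, with 0.78 in BN1 and -0.11 in BN2). The other 5 did not meet the criterion, such as Mmp8 (0.04), Cxcr2 (-0.05) and Pglyrp1 (-0.17). Against control 0 met the criterion with 5% IH plasma, and 1 was higher with 10% IH plasma (Pglyrp1, 0.28), where 2.04% of all genes were higher. The monocyte list and 4 of the 9 neutrophil markers thus moved with Lcn2 between autologous and control plasma, and 4 monocyte markers did with 5% IH plasma; their part in the result was not tested.

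T cell markers, expected in mononuclear cells, were bright, with Cd3g at a mean of 11.63 and Cd3e at 10.3 over the arrays. The erythroid marker Hbb (14) and the platelet marker Pf4 (12.57) were brighter still, so erythroid and platelet transcripts were present besides those of lymphocytes and monocytes. Their part in the members' values was not tested. Summed levels over the 8 arrays ran from 11708 to 12810 for 9 T cell markers, from 2369 to 3372 for 4 B cell markers, from 2292 to 2600 for 6 natural killer cell markers, from 7662 to 9413 for 5 platelet markers and from 17474 to 19005 for 6 erythroid markers, narrower spans than that of the monocyte list. Against control, 0 of these markers met the criterion with 5% IH plasma. With 10% IH plasma 1 was higher, the erythroid heme enzyme gene Alas2, where 2.04% of all genes were higher.

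**Figure D2:**
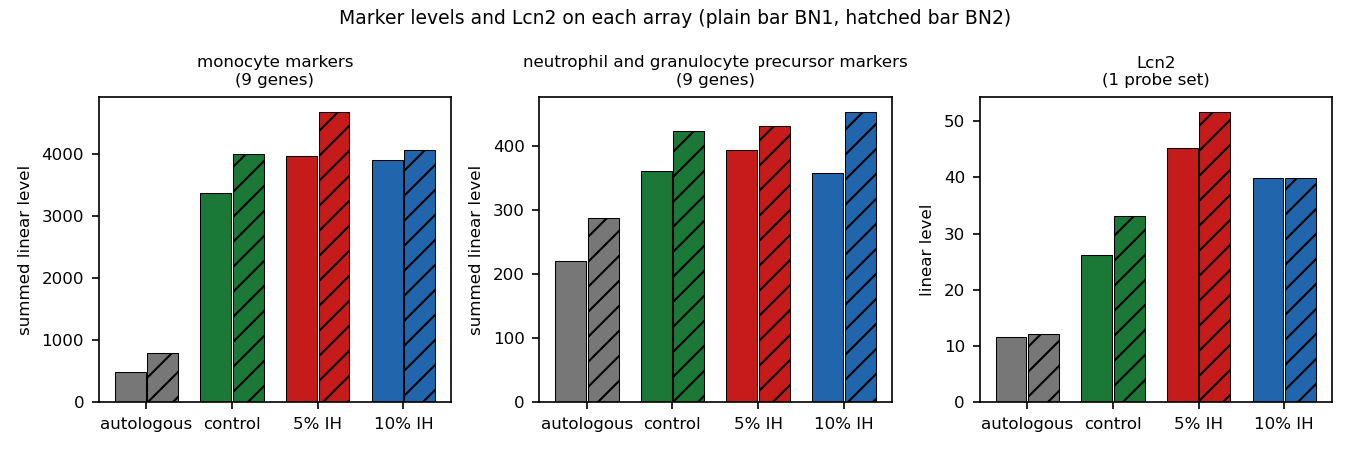
Summed linear level of 9 monocyte markers, summed linear level of 9 neutrophil and granulocyte precursor markers, and linear level of Lcn2, on each array by plasma (plain bars BN1, hatched bars BN2; every axis starts at 0). Monocyte sums stand between 496 and 798 with autologous plasma and between 3369 and 4672 with the other plasmas, and Lcn2 is lowest with autologous and highest with 5% IH plasma.

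Tfrc, the gate for transferrin-bound iron, was the brightest member. Its probe set 1388750_at read 8.30 and 8.26 with autologous plasma, 8.49 and 8.35 with control, 8.51 and 8.46 with 5% IH and 8.27 and 8.28 with 10% IH plasma, for BN1 and BN2. The whole range was small, and 0 of the 6 comparisons met the criterion. The difference from control was 0.06 (SE 0.0886) with 5% IH and -0.15 with 10% IH plasma. The means stood in the order 10% IH, autologous, control and 5% IH, with overlap between 10% IH and autologous and between control and 5% IH.

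The second Tfrc probe set, 1371113_a_at, was dimmer and read 5.01 and 5.58, 5.60 and 5.63, 5.73 and 5.52, and 6.09 and 5.58 with autologous, control, 5% IH and 10% IH plasma. It was higher than with autologous plasma in all 3 comparisons, by 0.32 with control, 0.33 with 5% IH and 0.54 with 10% IH (SE 0.206). These values came from the cells of BN1, with 0.59, 0.72 and 1.08, against 0.04, -0.06 and 0.00 in BN2. Without the BN1 autologous array they were 0.03, 0.04 and 0.25, all under the threshold. The 10% IH call also ended without the BN1 array of 10% IH (0.29), the 5% IH call without the BN1 array of 5% IH (0.22) and the control call without either control array (0.33 and 0.31). The 5% IH call ended too when ratios were taken within donors. Against control this probe set did not meet the criterion, with 0.01 for 5% IH and 0.22 for 10% IH, where the brighter one had 0.06 and -0.15.

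Slc40a1, the gene of the iron exporter, had 3 probe sets that did not move together against control. Against autologous plasma all 3 had differences below 0 in the 3 comparisons, from -0.48 to -0.11, and 4 of these 9 differences met the criterion. The brightest, 1390412_at, read 7.40 and 7.81 with autologous plasma, 7.51 and 7.18 with control, 7.38 and 7.33 with 5% IH and 7.03 and 7.32 with 10% IH, for BN1 and BN2. Its only call was lower with 10% IH than with autologous plasma, by -0.43 (SE 0.165; -0.37 in BN1 and -0.49 in BN2), and without the BN2 autologous array this was -0.23. Against control it gave 0.01 with 5% IH and -0.17 with 10% IH, and the groups overlapped.

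The probe set 1387130_at was of like brightness, with 7.10 and 7.91 for autologous, 7.23 and 7.21 for control, 7.32 and 7.18 for 5% IH and 7.53 and 7.25 for 10% IH plasma. The BN2 autologous array stood alone at the top. It was lower with control than with autologous plasma by -0.28 (SE 0.222), but the donors went opposite ways (0.13 in BN1 and -0.70 in BN2), and without the BN2 autologous array the difference was 0.12. Against control, 10% IH gave 0.17, opposite in sign to the brightest probe set.

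The dim Slc40a1 probe set, 1376972_at, was the only member probe set lower with both IH plasmas than with control. It read 5.02 and 4.86 with autologous plasma, 4.63 and 4.92 with control, 4.48 and 4.44 with 5% IH and 4.37 and 4.55 with 10% IH. Both IH plasmas lay below control without overlap, by -0.32 each (SE 0.122), with -0.15 and -0.49 in the donors for 5% IH and -0.26 and -0.38 for 10% IH. limma's adjusted p was 1 and 0.92. Both calls ended without the BN2 control array (-0.17 each), and that of 10% IH ended without its BN1 array (-0.23). Against autologous plasma both IH plasmas were lower by -0.48. Since the other 2 probe sets of the gene did not share these differences from control, a direction for Slc40a1 as a gene was not given by these arrays.

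Cp, the ferroxidase that lets ferroportin release iron, was dim, and its 3 probe sets kept 1 direction against autologous plasma. The brightest, 1368418_a_at, read 4.96 and 4.70 with autologous plasma, 4.96 and 5.20 with control, 4.97 and 5.19 with 5% IH and 5.25 and 5.18 with 10% IH. Probe set 1368419_at read 3.72 and 3.81, 4.11 and 3.79, 4.25 and 4.07, and 4.07 and 4.56 in the same order. For 1368420_at the values were 3.24 and 3.08, 3.45 and 3.54, 3.47 and 3.86, and 3.64 and 3.88. In the 3 probe sets the mean was lowest with autologous and highest with 10% IH plasma, and control and 5% IH overlapped in each.

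With 10% IH plasma all 3 Cp probe sets were higher than with autologous plasma, by 0.39 (SE 0.128), 0.55 (SE 0.169) and 0.60 (SE 0.144), in the cells of both donors. With 5% IH plasma the 2 dimmer ones were higher than with autologous plasma, by 0.40 and 0.51, and with control plasma only 1368420_at was, by 0.34. Against control, 10% IH plasma gave 0.14 for 1368418_a_at, which did not meet the criterion, 0.37 for 1368419_at, from BN2 alone (-0.04 in BN1 and 0.78 in BN2), and 0.27 for 1368420_at (0.19 and 0.34). With 5% IH plasma the differences from control were 0.00, 0.21 and 0.17, and 0 of the 3 met the criterion.

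Most Cp calls rested on single arrays. Without the BN2 array of 10% IH, the 2 differences from control were 0.12 and 0.14 and ended, and the difference of 1368419_at from autologous plasma was 0.31 and ended. The calls against control also ended without a control array, BN2 for 1368419_at (0.21) and BN1 for 1368420_at (0.22). Against autologous plasma, calls ended for 1368418_a_at with 10% IH without the BN2 autologous array (0.26), for 1368419_at with 5% IH without its BN1 array (0.31), for 1368420_at with 5% IH without its BN2 array (0.31) and for 1368420_at with control without the BN2 array of control (0.29) or autologous plasma (0.26). The rise of 1368420_at with 10% IH plasma over autologous was the Cp call that met the criterion whichever array was left out.

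Among the 9 member probe sets, 2 met the criterion with 5% IH against control, 1 higher and 1 lower, where 3.1% of all probe sets did, 1.58% higher and 1.52% lower. With 10% IH against control 4 did, 3 higher and 1 lower, against 6.95% of all, 3.58% higher and 3.37% lower. Between 5% and 10% IH 1 was higher, against 6.33% of all, 3.28% higher and 3.06% lower. In these 3 comparisons 0 member probe sets and 0% of all probe sets passed limma's adjusted p of 0.05. At an unadjusted limma p under 0.05 the members numbered 2, 2 and 1, where 2.54%, 5.19% and 4.68% of all probe sets passed. Between 5% and 10% IH the member that passed was Tfrc 1388750_at (0.21), which did not meet the criterion. Lcn2, which met the criterion there, did not pass by limma.

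Against autologous plasma the criterion took 4 of the 9 with control, 3 of them higher, against 10.5% of all probe sets, 5.33% higher and 5.15% lower. With 5% IH it took 5, of which 4 were higher, against 10.8% of all, 5.4% higher and 5.35% lower. With 10% IH it took 7, of which 5 were higher, against 10.3% of all, 5.13% higher and 5.21% lower. The shares of the 9 stand above these backgrounds, but the 9 probe sets are 4 genes, and probe sets of 1 gene share their transcript. The members were also chosen with earlier results of these data known, so neither these shares nor those against control test the group. The 9 monocyte markers had medians of 2.08, 2.36 and 2.28 in these 3 comparisons, and their part in the members' differences was not tested. The median of the members was 0.03 for 5% IH and 0.17 for 10% IH against control, and 0.18, 0.25 and 0.39 for control, 5% IH and 10% IH against autologous plasma, where the median of all probe sets was between -0.0182 and -0.000553.

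**Figure D3:**
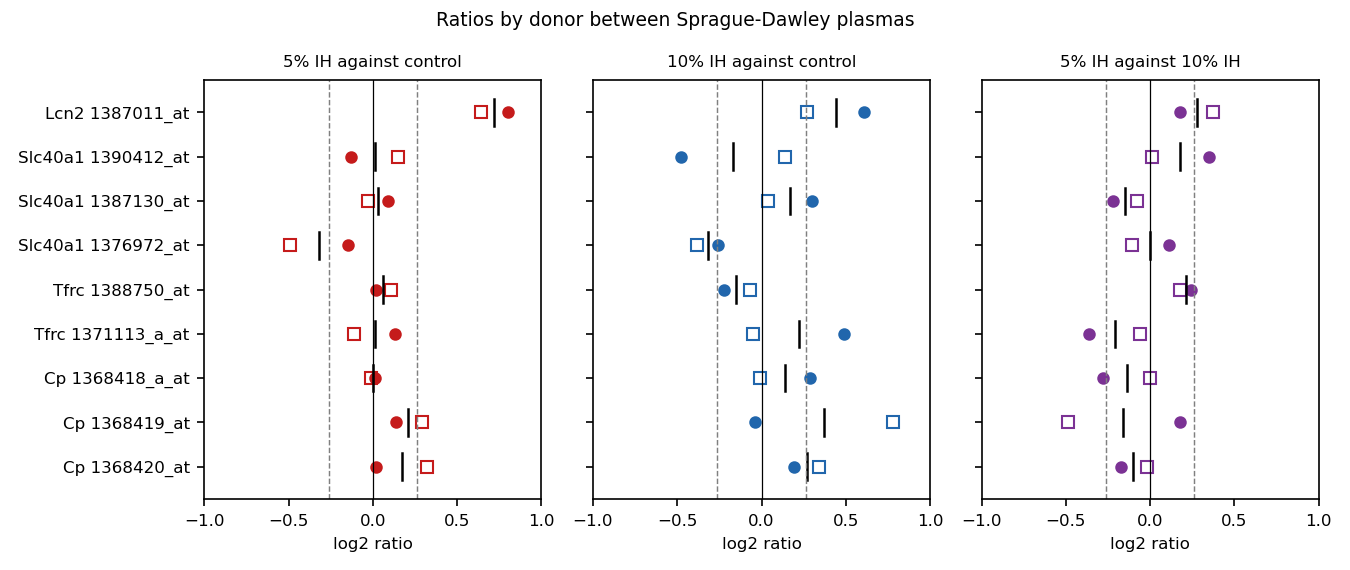
Log2 difference of each member probe set with 5% IH against control, 10% IH against control and 5% against 10% IH. Circles are the ratio in BN1 cells, squares that in BN2 cells, short bars their mean and dashed lines the 1.2-fold threshold. Lcn2 stands highest with 5% IH at 0.72, and the dim Slc40a1 probe set is at -0.32 with both IH plasmas.

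**Figure D4:**
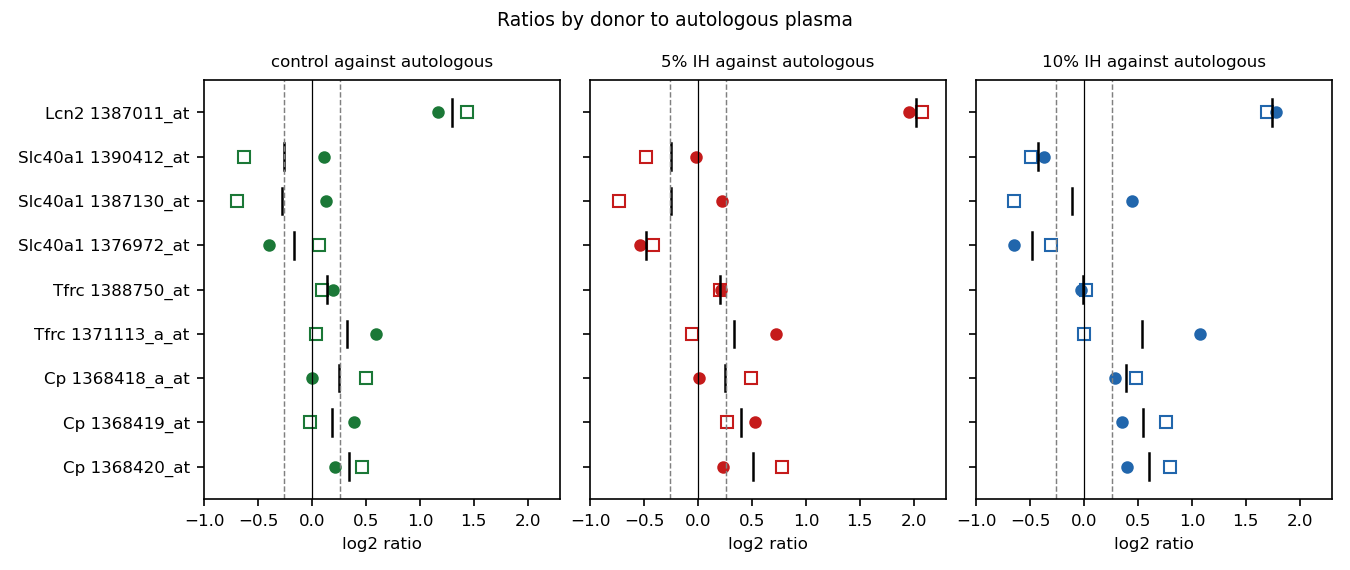
Log2 difference of each member probe set from autologous plasma with control, 5% IH and 10% IH plasma, with circles for the ratio in BN1 cells, squares for BN2 cells, short bars for their mean and the 1.2-fold threshold dashed. The means of Lcn2 lie between 1.30 and 2.02 and those of the Cp probe sets between 0.18 and 0.60, and the BN1 and BN2 marks of the dimmer Tfrc probe set lie far apart.

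The wider iron pathway was read in 7 lists with 84 genes, of which 72 were measured and 68 were not members, each gene by its brightest probe set. Of these 68, 2 were higher and 1 lower with 5% IH than with control plasma, where 1.46% of all genes were higher and 1.03% lower. With 10% IH plasma 3 were higher and 2 lower, against 2.04% and 2.26% of all genes. The median over the 68 was 0.03 with 5% IH and 0.02 with 10% IH plasma. Counts this small are not read as a result about the pathway.

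Hfe2, the gene of the hepcidin regulator hemojuvelin, was the iron gene besides Lcn2 that was higher with both IH plasmas than with control, by 0.44 with 5% IH (0.41 and 0.46 in the donors) and 0.46 with 10% IH (0.51 and 0.42; SE 0.124). Its probe set was dim, with a mean of 3.25, and it did not differ beyond the threshold between control and autologous plasma (-0.11). With 5% IH plasma the heme-degrading enzyme gene Hmox1 was higher by 0.27 (SE 0.236), and Scara5, a ferritin receptor gene, was lower by -0.35 (SE 0.107) at a mean level of 2.62.

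With 10% IH plasma Alas2, the erythroid enzyme of heme synthesis, was higher by 0.31 (SE 0.138), with 0.58 in BN1 and 0.03 in BN2, and Ireb2, an iron-responsive RNA-binding protein gene, by 0.27 (SE 0.245). Bdh2, a dehydrogenase gene tied to the making of a mammalian siderophore, was lower by -0.37 (SE 0.142), and the second transferrin receptor gene Tfr2 by -0.31 (SE 0.125). Between the IH plasmas, 1 gene outside the members was higher with 5% than with 10% IH, Bdh2 at 0.27, and 3 were lower, Ireb2 at -0.38, the BMP target Id1 at -0.27 and the metalloreductase gene Steap2 at -0.27, against 2.62% and 1.85% of all genes. limma's adjusted p ran from 0.92 to 1 for these differences of the IH plasmas.

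From autologous to control plasma, 7 of the 68 were higher and 0 lower, against 6.16% and 3.97% of all genes. All 9 monocyte markers were higher in the same comparison, and their part in these differences was not tested. The 7 genes were Bdh2 (1.58, limma adjusted p = 0.000521), Hmox1 (1.51, adjusted p = 0.013), the heme-hemopexin receptor gene Lrp1 (1.08, adjusted p = 0.0106), the heme-binding protein gene Hebp1 (0.89, adjusted p = 0.0208), the metal importer gene Slc39a8 (0.57, adjusted p = 0.027), and Id1 and the antioxidant regulator gene Nfe2l2 (0.48 each, adjusted p = 0.32 and 0.104). The list of siderophore handling held both Lcn2 and Bdh2, and its other 2 measured genes, the lipocalin receptor genes Slc22a17 and Lrp2, had 0.01 and -0.03. Bdh2 and Lcn2 were thus both higher with control than with autologous plasma, while with 10% IH plasma Lcn2 was higher than with control and Bdh2 lower.

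Iron storage and chaperone genes (3 of 6 measured: Ncoa4, Pcbp1 and Pcbp2), export genes by their brightest probe set (6 measured) and mitochondrial iron genes (13 of 16 measured) had 0 genes that met the criterion with either IH plasma against control or with control against autologous plasma. The hepcidin gene Hamp, the hormone that closes ferroportin, had 0.05 with 5% IH and 0.03 with 10% IH plasma against control. The ferritin light chain gene Ftl1, transferrin (Tf) and lactoferrin (Ltf) had no probe set of their own and, like Slc11a1 and Fth1, were not analysed here.

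**Figure D5:**
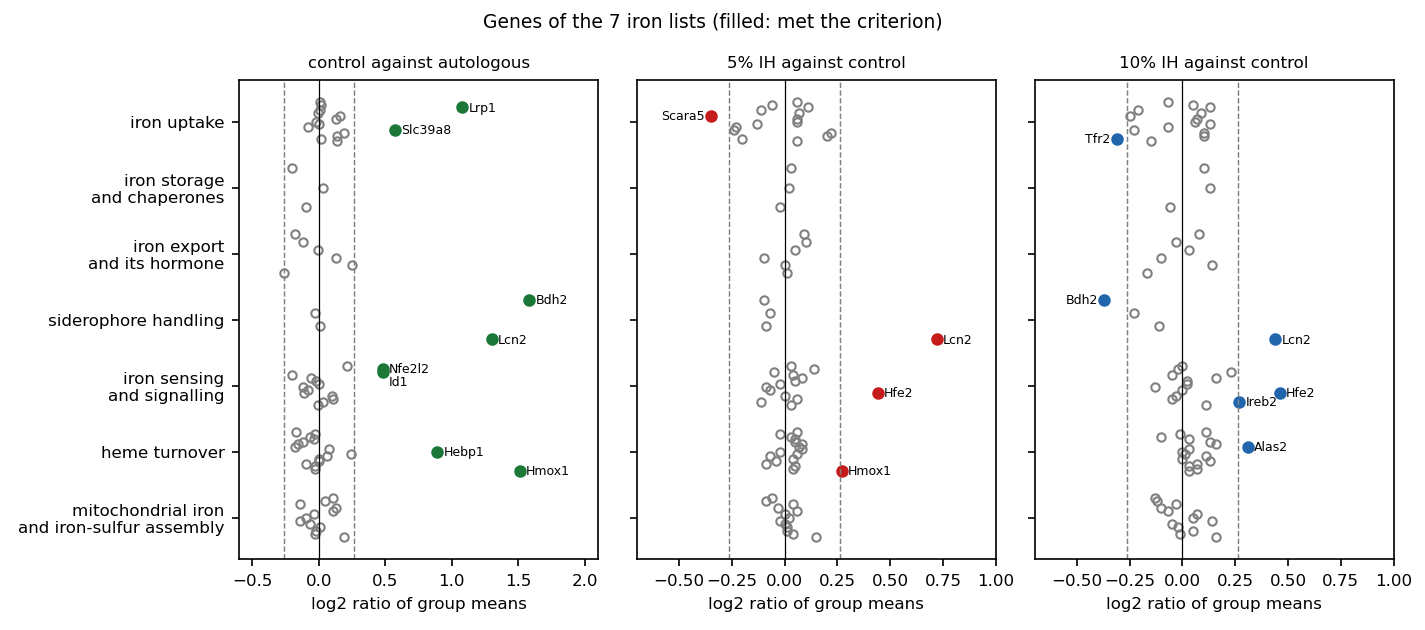
Log2 difference of group means for each of the 72 measured genes of the 7 iron lists, with control against autologous, 5% IH against control and 10% IH against control plasma; filled points met the criterion and dashed lines are the 1.2-fold threshold. In the IH panels the named genes besides Lcn2 and Hfe2 lie near the threshold, whereas Bdh2, Hmox1, Lcn2 and Lrp1 exceed 1 in the autologous panel.

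The genes whose levels ran most like each member were sought among 518 genes with group means spread over more than 0.526, by Pearson's r over the 8 arrays, which are shared by both genes and include the large autologous step. For Lcn2 they were Arhgap22 (r = 0.9878), the neutrophil chemokine gene Cxcl2 (0.9838), the bacterial lipoprotein receptor gene Tlr2 (0.9836), the stretch-activated channel gene Piezo1 (0.9835) and Nr1h3, the gene of the sterol receptor LXR alpha (0.9829). Cxcl2 had 0.94 with 5% IH and 0.54 with 10% IH against control, where Lcn2 had 0.72 and 0.44. Tlr2 had 0.35 and 0.06.

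Neighbours of the other members had lower r. The brightest probe sets of these members spanned less than the 0.526 asked of the genes searched, so their r cannot be compared with that of Lcn2. The nearest to the brightest Slc40a1 probe set were Myb (0.9359), Hook3 (0.9141), Arsk (0.8468), Rab27b (0.844) and Fndc3a (0.8148). Nearest to the brightest Tfrc probe set were Klhl14 (0.9385), Pakap (0.8913), Cers6 (0.8572), Tpd52 (0.8474) and Bcl11a (0.8412), and nearest to the brightest Cp probe set Adgre5 (0.9193), Capg (0.8849), S100a11 (0.8792), Cish (0.876) and Sh2b2 (0.8681). These values describe 8 arrays and carry no test.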

How the data were processed

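The authors hybridized the RNA of 8 cultures to Affymetrix rat arrays and deposited log2 values made with Expression Console and Robust Multichip Analysis, a method that subtracts background, equalizes the arrays by quantiles and merges the probes of a set. The submitters' notes also name Partek, without a role. No value was rescaled. Of 31042 probe sets, 20826 carried 1 gene symbol (14217 genes), 436 several and 9780 none. The number of arrays limits the precision.

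The Rank Product was rewritten in Python 3.11.15. It used the 4 between-array ratios of a comparison, 100 permutations within arrays and a 1-sided p in either direction. For 5% IH against control it called 963 probe sets, close to the number the study reported. For 10% IH against control it called 2156, more than the study reported, so the shares given there are those of the rewritten version. limma 3.58.1 (R 4.3.3) took all 8 arrays in 1 fit, without donor, and its adjustment ran over all probe sets. Both were tested on simulated data. Replicate numbers pair the arrays by the donor of the cells, as the labels state. Deviations from group means correlated between arrays of a donor at 0.059 to 0.24 among Sprague-Dawley plasmas and at -0.171 to -0.00387 with autologous plasma.

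All member probe sets were named. Of each iron list, genes that met the criterion were named, up to 4 a comparison, and of each marker list up to 3, besides genes named as absent, for their role or as list members that did not meet it, which were chosen after their values were seen. Members and lists were chosen with earlier results of these data known. Alternatives were within-donor ratios, a donor block, a p taken 2-sided, the share of false predictions, calls by limma alone, removal of dim probe sets, renormalization, averaging the probe sets of a gene, and leaving out each array.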

Additional observations from a re-analysis of the deposited data

Results flagged for a closer look

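Lcn2 differed between the 2 hypoxia plasmas, each of which is 1 pool. Its log2 difference from control plasma was 0.72 with 5% IH and 0.44 with 10% IH. The 5% IH plasma stood above the 10% IH plasma by 0.28 (0.18 in BN1 and 0.37 in BN2). This difference, tested directly by the Rank Product of the 2 plasmas, met the criterion, as did 6.33% of all probe sets. limma gave it an adjusted p of 0.981, and the value was 0.18 without the BN2 array of 5% IH. Whether it is a difference of the exposures cannot be told from 1 pool of each.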

How the results depend on the processing

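The member differences under the alternatives gave 750 values. Of these, 717 kept their direction with no change of call by limma's adjusted p, 3 reversed and 30 moved. Of the 30, 27 were small differences that changed sign under 1.2-fold. The 717 does not measure stability, because many alternatives cannot change a difference of group means. Among these are a donor block, removal of dim probe sets and leaving out an array of a group not compared. Only Lcn2 against autologous plasma had calls by adjusted p, so few calls could be lost. By size, 16 of the 750 values fell under the 1.2-fold threshold and 36 passed it. One reversed value was Tfrc 1388750_at with 10% IH against autologous plasma (-0.01, and 0.27 as the mean of both Tfrc probe sets). The others were of Slc40a1 1387130_at against autologous plasma, at -0.28 with control and -0.11 with 10% IH. Without the BN2 autologous array these were 0.12 and 0.30, and without the BN1 autologous array -0.69 and -0.51. Of the 23 calls, most of those of Lcn2 met the criterion whichever array was left out, and most of those of the other members did not. Some differences that did not meet it did so without an array. With 1 array left in a group, calls also rose over all probe sets in the comparisons among Sprague-Dawley plasmas, so these are not read as results about the members.

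Counts of member probe sets depended on the rule. With the share of false predictions in place of the p, calls numbered 1 of 2 for 5% IH against control, 0 of 4 for 10% IH against control, 0 of 1 for 5% against 10% IH, and 1 each of 4, 5 and 7 for control, 5% IH and 10% IH against autologous plasma, where all probe sets called numbered 13, 4, 6, 176, 186 and 131. limma's adjusted p gave 0, 0, 0, 1, 1 and 1 in that order. An unadjusted limma p with the fold threshold gave 2 for 10% IH against control, 0 for 5% against 10% IH and 2 for control against autologous plasma, of 1194, 1033 and 2491 over all probe sets. Without the dimmest 40% of probe sets, which leaves out Lcn2 and 3 other member probe sets, the counts were 0, 0, 0, 1, 0 and 3. Leaving out an array changed which members were called. Between the IH plasmas, Lcn2 was not called without the BN2 array of 5% IH, where Cp 1368420_at was. Nor was it without the BN2 array of 10% IH, where Slc40a1 1390412_at and Tfrc 1371113_a_at were.

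With donor as a replicate block, that is with ratios paired within donor, member counts were 2, 4, 1, 4, 4 and 7. All probe sets called numbered 963, 2156, 1966, 3134, 3079 and 2824 of 31042. Of the member calls only that of Tfrc 1371113_a_at with 5% IH against autologous plasma was lost. limma with a donor block gave Lcn2 an adjusted p of 0.814 for 5% IH and 0.87 for 10% IH against control, and changed no call by adjusted p. Over all probe sets, 963 met the criterion with 5% IH against control, 1939 to 2284 without an array and 238 without the dimmest 40%. For the other comparisons that filter gave 1331 in place of 2156, 1159 of 1966, 2182 of 3251, 2220 of 3338 and 2030 of 3212. Leaving out an array gave up to 3415 for 10% IH against control and up to 3327 for 5% against 10% IH. The causes of these shifts were not tested, apart from the removal of dim probe sets.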
